A study of Mus musculus with 10 samples.

Results

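The core genes of the Polycomb repressive complexes were described in a mouse brain endothelial cell line with and without added Gata4. The members are the 10 genes Ezh1, Ezh2, Eed, Suz12, Bmi1, Ring1, Rnf2, Cbx2, Cbx7 and Cbx8, taken by the gene symbol of their array feature, and all 10 were measured among 23111 named genes. The cells were bEnd3, a brain endothelial line immortalised with the polyoma middle T antigen. In 5 samples (Gata4) a lentivirus with an EF1α promoter carried a codon-optimized cDNA for the mouse Gata4 protein followed by IRES, mCherry, a self-cleaving peptide and puromycin resistance, and in 5 samples (EV, empty vector) it carried the IRES, mCherry and puromycin part alone. Both groups were selected with puromycin, and total RNA was hybridised to Affymetrix microarrays. The samples are labelled biological replicates, but the labels do not state separate transductions. The spread behind each p-value may therefore be technical.

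Polycomb proteins keep genes silent through chromatin. Polycomb repressive complex 2 (PRC2) places methyl groups on histone H3, with EZH1 or EZH2 as the catalytic subunit and EED and SUZ12 as its scaffold. Polycomb repressive complex 1 (PRC1) attaches ubiquitin to histone H2A through RING1 or RNF2 (also called RING1B). Canonical PRC1 reads the methyl mark with a CBX protein, whereas variant PRC1 holds RYBP or YAF2 in its place, and a PCGF protein such as BMI1 sets the type of complex. GATA4 binds GATA sites in DNA and is known from heart and gut development and from the liver sinusoidal endothelium.

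Levels are given as log2 RMA values, and a change is the Gata4 mean minus the EV mean on that scale. Quantile normalization gives all arrays the same distribution, so every change is relative to the other genes. The number of arrays, 5 per group, limits the precision. At a Benjamini-Hochberg adjusted p under 0.05 (limma, over all genes), 25.6% of the genes differed between the groups, 12.4% higher and 13.2% lower in the Gata4 samples. All 12 endothelial markers lay above the median gene level, and 3 of them rose and 6 fell with Gata4, with a mean of 11.24 to 11.41 in the EV samples and 11.09 to 11.11 in the Gata4 samples. Of 19 markers of other cell types, 15 lay below that median, 4 were higher and 2 lower, and their mean level was 3.84 to 4.01 in the EV and 3.85 to 3.92 in the Gata4 samples. Of 9 measured reference genes 2 were higher and 2 lower. The part of these shifts in the results below was not tested. The Gata4 feature read 5.08 ± 0.17 (SD, n = 5) against 4.75 ± 0.16 with overlapping groups (limma, adjusted p = 0.017), and it need not detect the codon-optimized transgene. On the second principal component, which held 5.26% of the variance, EV samples 1 and 2 stood apart from EV samples 3 to 5.

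The estimated changes of the core Polycomb genes with Gata4 ran from -0.26 to 0.24 on the log2 scale. Of the 10 members, Eed and Rnf2 were higher, Suz12 was lower and 7 did not pass the test, so 30% were called against 25.6% of all genes. The largest of the 10 changes was that of Suz12, 1.19-fold, and the median absolute change was 0.10, against 0.10 over all genes. Of the quartiles of gene level, numbered from the lowest, quartiles 3 and 4 hold 3 and 6 of the members. The median absolute change of all genes in these quartiles was 0.20 and 0.18. The median signed change of the members was -0.04, against -0.01 over all genes. The 2 groups lay fully apart for 2 members, against 21.1% of all genes. In the uppermost 25% of gene levels, which holds 6 of the members, 51% of all genes were called, and there 3 of the 6 members were.

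**Figure D1:**
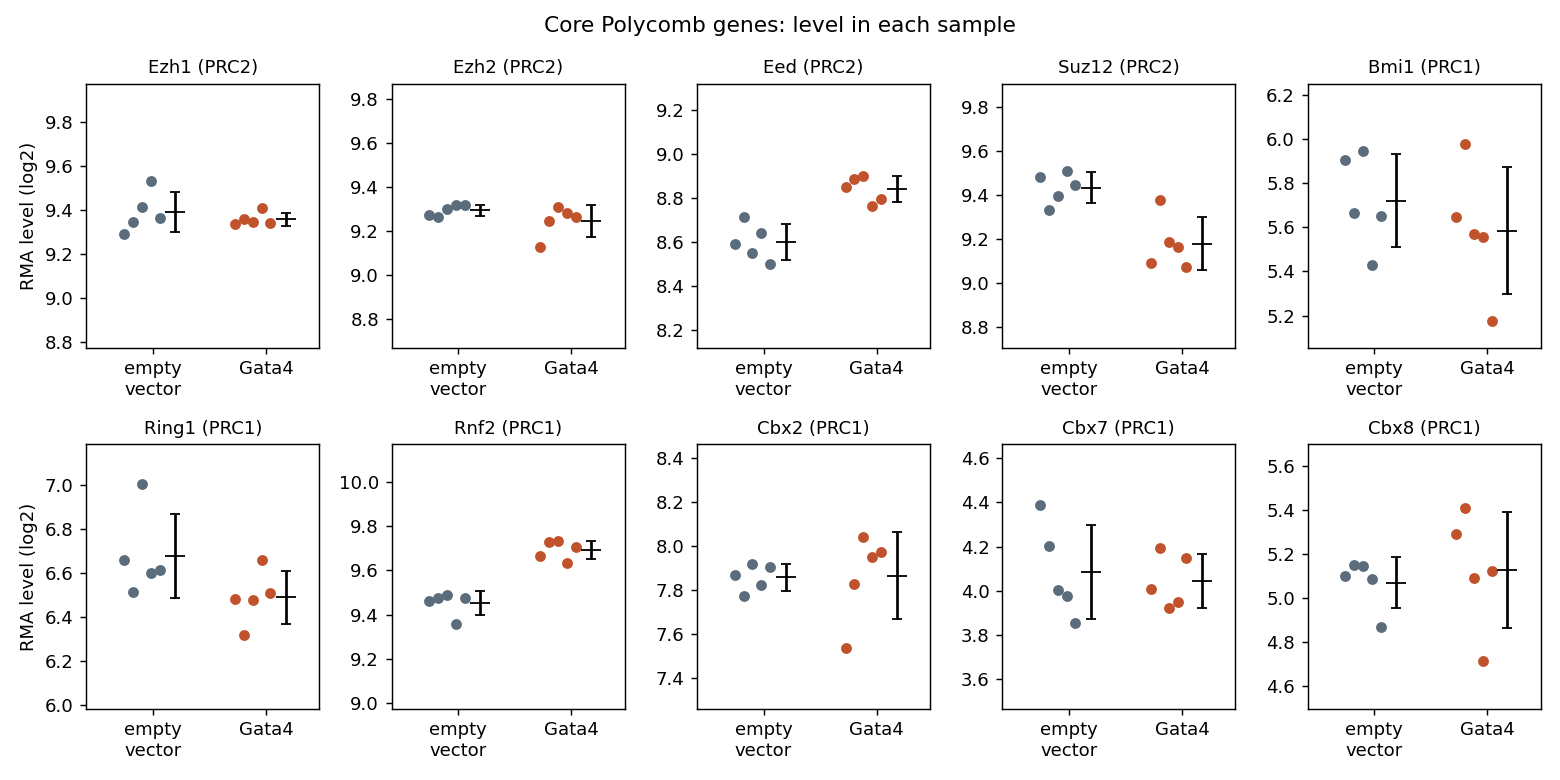
Level (RMA, log2) of the 10 core Polycomb genes in each of the 5 empty-vector and 5 Gata4 samples, 1 point per sample, with the mean and SD as a bar at the right of each group; every panel spans 1.2 log2 units around its gene. The groups separate for Eed and Rnf2 and nearly for Suz12, and overlap in the other 7 panels.

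The promoters of the 3 called members are shown because these are the genes that differed between the groups. RefSeq promoter sequences (GRCm38.p6) were found for 9 of the 10 members, Cbx2 being the one without an entry, and the 250 bases before the start site are given 5′ to 3′ on the gene's own strand. Capitals mark a word of the E2F motif (TTTCCCGC, TTTCGCGC, TTTGCCGC or TTTGGCGC) or of the GATA motif (GATA with A or T before it and A or G after it), searched on both strands.
The Eed window is chr7:89980977-89981226 on the minus strand, that of Rnf2 chr1:151500992-151501241 on the minus strand and that of Suz12 chr11:79992856-79993105 on the plus strand.
Eed: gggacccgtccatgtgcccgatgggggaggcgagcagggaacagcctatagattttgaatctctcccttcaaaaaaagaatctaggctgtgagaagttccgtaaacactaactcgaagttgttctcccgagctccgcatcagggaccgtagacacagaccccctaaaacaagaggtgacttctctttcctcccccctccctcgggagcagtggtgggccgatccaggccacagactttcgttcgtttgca
Rnf2: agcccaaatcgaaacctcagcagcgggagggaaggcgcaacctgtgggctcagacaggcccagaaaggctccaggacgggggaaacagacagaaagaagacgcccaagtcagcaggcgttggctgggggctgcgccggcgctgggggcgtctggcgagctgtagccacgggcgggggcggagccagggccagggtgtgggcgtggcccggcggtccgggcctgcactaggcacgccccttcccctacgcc
Suz12: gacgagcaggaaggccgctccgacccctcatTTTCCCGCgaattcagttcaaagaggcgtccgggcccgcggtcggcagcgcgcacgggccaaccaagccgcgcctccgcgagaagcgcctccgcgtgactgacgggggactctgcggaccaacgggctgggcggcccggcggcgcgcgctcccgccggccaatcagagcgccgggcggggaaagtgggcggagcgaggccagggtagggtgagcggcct
Only the Suz12 window of these 3 held a word, an E2F word that begins 219 bases before the start site. Over the 9 member windows, 1 held an E2F word (Suz12) and 1 a GATA word (Ezh2). Of the 32841 promoters in the table, 1.86% held an E2F word and 26.5% a GATA word in a window of that length. Windows of the members held 12 to 37 CG dinucleotides, where the median over all promoters was 6. A match of letters is a description and not a binding site.

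Within PRC2, the scaffold genes moved in opposite directions and the catalytic genes showed no detectable change. Eed encodes the subunit that binds the methyl mark and activates the enzyme. It stood at 8.59, 8.71, 8.55, 8.64 and 8.50 in EV samples 1 to 5 and at 8.85, 8.89, 8.90, 8.76 and 8.79 in Gata4 samples 1 to 5. Every Gata4 sample lay above every EV sample. The change was 0.24 ± 0.05 (SE), or 1.18-fold (95% interval 1.09 to 1.28) (limma, adjusted p = 0.0043). Permuting the samples in every possible way (exact, two-sided) gave p = 0.0079, the smallest this design allows.

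Suz12 encodes the zinc finger subunit that holds the complex together. Its levels were 9.48, 9.33, 9.39, 9.51 and 9.45 in EV samples 1 to 5 and 9.09, 9.38, 9.19, 9.16 and 9.07 in Gata4 samples 1 to 5. Gata4 sample 2 lay within the EV range, and the other four lay below it. Suz12 fell by 0.26 ± 0.06 (SE) (limma, adjusted p = 0.0094). The exact two-sided permutation p was 0.016. An exact rank-sum test did not call it (adjusted p = 0.064). Over all genes that test called 4865, and the groups lay fully apart for 4865. Its outcome for Suz12 therefore restates the overlap of Gata4 sample 2.

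Ezh2, the catalytic subunit gene of dividing cells, read 9.27, 9.26, 9.30, 9.32 and 9.32 in EV samples 1 to 5. In Gata4 samples 1 to 5 it read 9.13, 9.25, 9.31, 9.28 and 9.26. The groups overlapped, with Gata4 sample 1 the lowest of all 10. Its change was -0.05 ± 0.05 (SE) with a 95% interval of -0.15 to 0.05, so a fall of over 1.11-fold lies outside the interval (limma, adjusted p = 0.55). Without Gata4 sample 1 the change was -0.019. Ezh1, the second catalytic gene, which predominates in resting cells, changed by -0.03 with an interval of -0.14 to 0.08 (limma, adjusted p = 0.76). The per-sample difference Ezh1 minus Ezh2 was 0.09 ± 0.08 (SD, n = 5) in the EV and 0.11 ± 0.07 in the Gata4 samples. It therefore shifted by 0.02 between the groups, within the spread between samples (exact two-sided permutation test, p = 0.70, adjusted p = 0.80 over 6 pairs of alternative subunits).

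Within PRC1, the ubiquitin ligase gene Rnf2 was called higher and its paralog Ring1 was not called. Rnf2 encodes RING1B, the main ligase of PRC1. It read 9.46, 9.48, 9.49, 9.36 and 9.47 in EV samples 1 to 5 and 9.67, 9.73, 9.73, 9.63 and 9.71 in Gata4 samples 1 to 5. No value of a group reached the range of the other. The rise was 0.24 ± 0.05 (SE), or 1.18-fold (95% interval 1.10 to 1.27) (limma, adjusted p = 0.0014).

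Its paralog Ring1 read 6.66, 6.51, 7.004, 6.60 and 6.61 in EV samples 1 to 5 and 6.48, 6.32, 6.47, 6.66 and 6.51 in Gata4 samples 1 to 5. The groups overlapped, and the change of -0.19 ± 0.09 (SE) did not pass the test (limma, adjusted p = 0.17). Without EV sample 3, the highest of the 10, the change was -0.11. The difference Ring1 minus Rnf2 was -2.77 ± 0.18 (SD, n = 5) in the EV and -3.21 ± 0.16 in the Gata4 samples, a shift of -0.43 with no overlap of the groups. An exact two-sided permutation test of this shift gave p = 0.0079, or 0.048 adjusted over the 6 pairs. That is the smallest adjusted p that 6 pairs allow. The adjustment leaves out 1 other planned pair, and with that pair included the call could be lost. Levels of different probe sets are not comparable, so only the shift between groups is read here. Of 14 alternatives 4 kept this call and 10 lost it. The smallest adjusted p, 0.012, came from a moderated limma test of the differences. The call was lost after cyclic loess normalization (shift -0.41, exact permutation test, adjusted p = 0.095). It was also lost without any 1 of Gata4 samples 2 and 3 and EV samples 1, 2, 3, 4 and 5, each with an adjusted p of 0.095 and a shift of -0.48 to -0.36.

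Bmi1 and the CBX genes gave no detectable change. Bmi1, which encodes the PCGF subunit first known as an oncogene partner of Myc, ranged from 5.43 to 5.95 in the EV and from 5.17 to 5.98 in the Gata4 samples, with a change of -0.13 and an interval of -0.43 to 0.16 (limma, adjusted p = 0.57). The change of Bmi1 was -0.031 without Gata4 sample 5, -0.23 without Gata4 sample 2, -0.21 without EV sample 4, -0.088 without EV sample 1 and -0.078 without EV sample 3. Cbx2, Cbx7 and Cbx8 encode alternative chromodomain subunits that read the methyl mark. Cbx2 ranged from 7.77 to 7.92 in the EV and from 7.54 to 8.04 in the Gata4 samples (change 0.01, interval -0.18 to 0.19). Cbx7 ranged from 3.85 to 4.39 and from 3.92 to 4.19 (change -0.04, interval -0.25 to 0.17), close to the median of all features at 4.16, where values may be background. Cbx8 ranged from 4.87 to 5.15 and from 4.72 to 5.41 (change 0.06, interval -0.19 to 0.30). Their adjusted p-values by limma were 0.97, 0.84 and 0.80. The signs of the changes of Cbx2, Cbx7 and Cbx8 turned when single samples were left out, and that of Cbx2 also under array weights and after centring on reference genes.

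The other pairs of alternative subunits shifted by less than the spread between samples. Cbx7 minus Cbx8 shifted by -0.10 ± 0.12 (SE), Cbx7 minus Cbx2 by -0.05 ± 0.15 and Cbx2 minus Cbx8 by -0.05 ± 0.19. Bmi1 minus Pcgf2, its closest paralog, shifted by -0.06 ± 0.20. None of these 4 passed (exact two-sided permutation tests, adjusted p = 0.80 for each), which does not show that the members act alike. In the RefSeq gene table Cbx2 and Cbx8 are direct neighbours on chromosome 11.

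The members also differed in how closely samples repeated. The pooled SD within groups was 0.05 for Rnf2 and Ezh2, 0.07 for Ezh1 and Eed, 0.10 for Suz12 and 0.15 for Cbx2, the 6 members in the uppermost 25% of levels. It was 0.16 for Ring1, 0.17 for Cbx7, 0.20 for Cbx8 and 0.25 for Bmi1. The half-width of the 95% interval of a change accordingly ran from 0.10 to 0.29. The changes of Eed and Rnf2, at 0.24 each, are smaller than the half-width for Bmi1.

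The genes whose profile over the 10 samples lay nearest to a member were found among called genes, by the root mean square distance of deviations from the EV mean. Nearest to Rnf2 were Lamp2, a lysosomal membrane protein gene (distance 0.03), Etfb (0.04) and the retromer gene Vps35 (0.04). Nearest to Suz12 were Ralgapb (0.05), Zbtb11 (0.06) and Zfp592 (0.06). Ezh2 itself was not called, so the search among called genes could return only genes that changed. Nearest to it were Ubxn7, Calu and Lman2 (each 0.07), with changes of -0.13 each, whose calls were lost in 12, 11 and 12 of 21 alternatives. These distances, on the log2 scale, describe 10 samples in 2 groups and carry no test.

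Among the accessory subunits of the Polycomb system, changes ran from -0.66 to 1.65. Of 44 measured genes for PRC2 partners, other PRC1 subunits and H2A deubiquitinases, 9 were higher and 6 lower, where 25.6% of all genes were called. Most of the 44 lay above the median gene level, in level quartiles 3 and 4, where 41% and 51% of all genes were called. Pcgf5, which encodes the PCGF subunit of a variant PRC1, was the gene with the largest change. It read 8.20, 8.35, 8.13, 8.10 and 8.10 in EV samples 1 to 5 and 9.85, 9.91, 9.77, 9.80 and 9.78 in Gata4 samples 1 to 5. The groups lay far apart, with a rise of 1.65 ± 0.06 (SE), or 3.13-fold (limma, adjusted p = 3.7e-10).

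**Figure D2:**
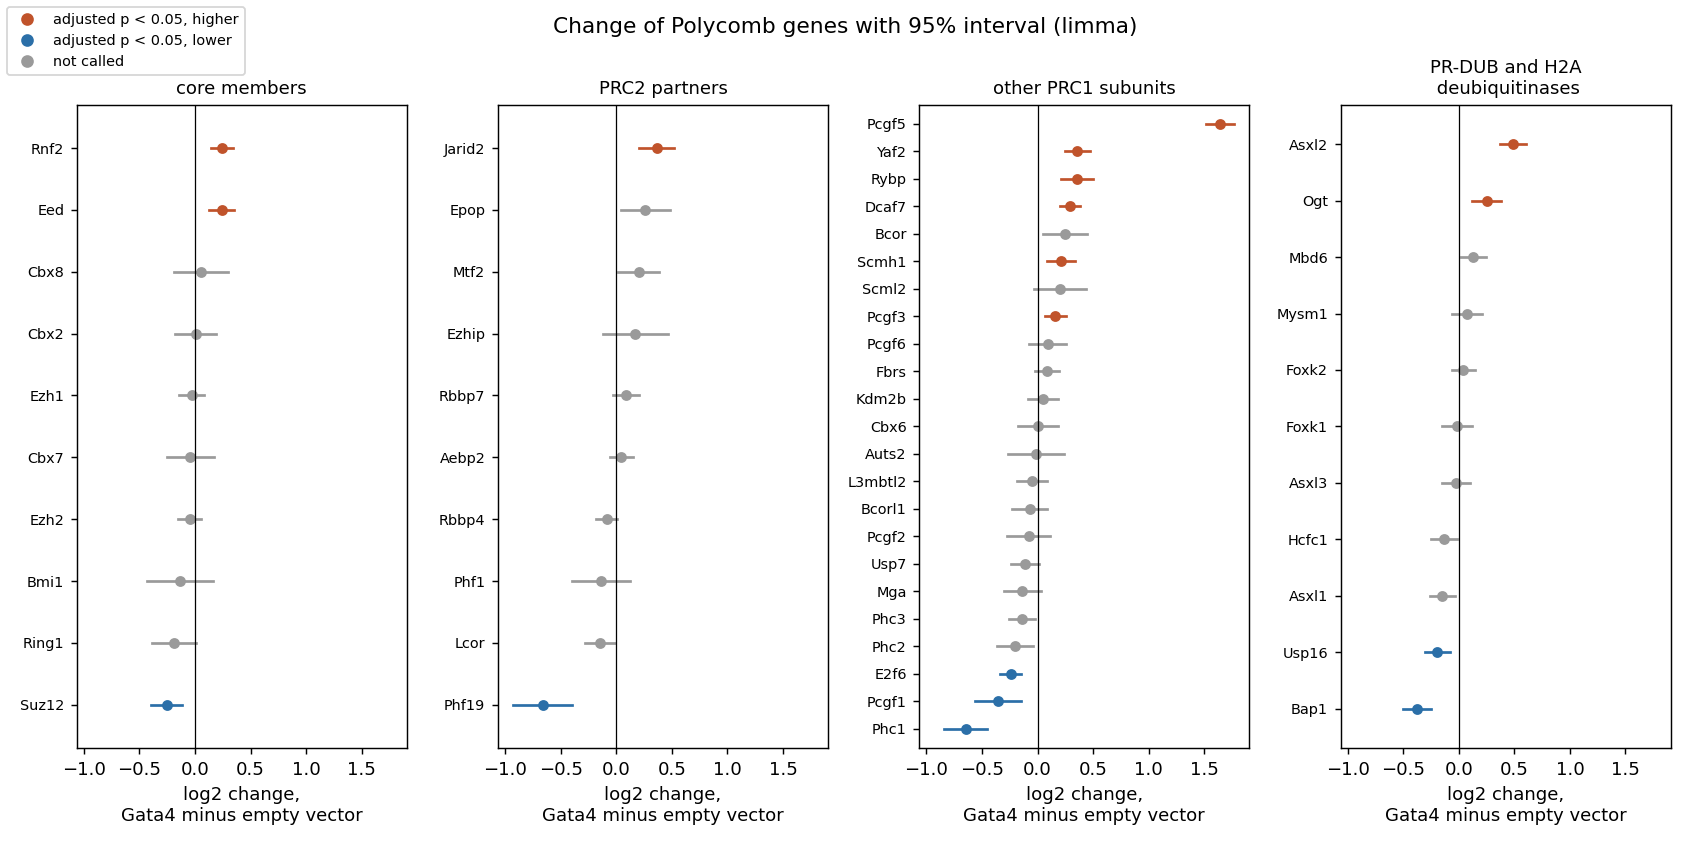
Change in log2 level (Gata4 minus empty vector, horizontal axis) of the core members, PRC2 partners, other PRC1 subunits and H2A deubiquitinases, with the 95% interval of the limma fit and colours for genes called higher, lower or not called. Core members lie between -0.26 and 0.24, whereas Pcgf5 stands at 1.65 and Phf19 at -0.66.

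Of 23 other PRC1 subunit genes, 6 were higher and 3 lower (39.1% called), with a median change of 0.01. Of the 23, 2 lay below the median gene level, and above it 41% (level quartile 3) and 51% (quartile 4) of all genes were called. Yaf2 and Rybp, the alternative subunits of variant PRC1, rose by 0.36 ± 0.05 and 0.35 ± 0.07 (SE), from 8.04 ± 0.08 to 8.40 ± 0.06 and from 9.55 ± 0.10 to 9.90 ± 0.11 (SD, n = 5; limma, adjusted p = 2.0e-04 and 0.0015). Phc1, a Polyhomeotic gene of canonical PRC1, fell from 6.12 ± 0.11 to 5.48 ± 0.19, or 1.57-fold. Pcgf1, the PCGF gene of the variant complex that holds KDM2B, fell by 0.35 ± 0.09 (SE). Gata4 sample 1 was the lowest for Pcgf1, at 6.29 against 6.75 to 6.83 in the other Gata4 samples. E2f6, a repressor gene of another variant complex, fell by 0.24 ± 0.04 (SE). For Pcgf5, Yaf2, Rybp, Phc1, Pcgf1 and E2f6 the values of the groups lay fully apart. After centring on reference genes the list gave 4 higher and 5 lower, and with a test against a fold of 1.2 it gave 1 and 1, Pcgf5 and Phc1.

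Among 10 PRC2 partners 1 was higher and 1 lower (20% called, against 25.6% of all genes), with a median change of 0.07. Of the 10, 1 lay below the median gene level, and above it 41% (level quartile 3) and 51% (quartile 4) of all genes were called. Jarid2, whose product recruits PRC2 and is itself methylated by it, rose from 7.83 ± 0.15 to 8.19 ± 0.08 (SD, n = 5; limma, adjusted p = 0.0021). Phf19, one of the Polycomb-like genes, fell from 6.82 ± 0.17 to 6.15 ± 0.27, or 1.58-fold (limma, adjusted p = 0.0012). The PR-DUB complex and other H2A deubiquitinases remove the ubiquitin that PRC1 places. Among 11 of their genes, 2 were higher and 2 lower (36.4% called, median -0.01). Of these 11, 1 lay below the median gene level. Bap1, the catalytic gene of PR-DUB, fell from 8.56 ± 0.11 to 8.18 ± 0.04, while its partner gene Asxl2 rose from 8.31 ± 0.04 to 8.79 ± 0.10, or 1.40-fold. Ogt rose by 0.25 and Usp16 fell by 0.19. The call of Usp16 was lost without EV samples 1 and 2 (limma, adjusted p = 0.068).

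Genes that act against Polycomb silencing are mainly of the trithorax group. Of 27 measured trithorax and demethylase genes 3 were higher and 2 lower (18.5%, against 25.6% of all genes), with a median change of 0.05. All 27 lay above the median gene level, where 41% (level quartile 3) and 51% (quartile 4) of all genes were called. Smarca2, which encodes the BRM ATPase of the SWI/SNF remodeller, rose from 9.01 ± 0.08 to 9.85 ± 0.07 (SD, n = 5), or 1.79-fold (limma, adjusted p = 1.5e-07). Smarca4, the gene of the alternative ATPase BRG1, rose by 0.18 and Hcfc2 by 0.23. Wdr5, a core subunit gene of the H3 methyltransferases of the MLL family, fell by 0.41, and Arid2 fell by 0.21. The call of Smarca4 was lost after centring on reference genes (limma, adjusted p = 0.070). Kdm6a and Kdm6b, the demethylase genes that remove the PRC2 mark, were looked up for this reason after the values were seen and differed by -0.05 and 0.05 between the groups, not past the threshold.

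Among classical targets of Polycomb silencing, Cdkn2a and Cdkn2b rose, and some Hox genes of the B and D clusters fell. At the Ink4 and Arf locus, which Polycomb proteins hold silent in young cells, Cdkn2a read 8.80, 8.71, 8.83, 8.72 and 8.93 in EV samples 1 to 5 and 9.33, 9.30, 9.22, 9.32 and 9.35 in Gata4 samples 1 to 5. All Gata4 values lay above all EV values, a rise of 0.51 ± 0.05 (SE), or 1.42-fold (limma, adjusted p = 1.1e-05). Its neighbour Cdkn2b rose 1.31-fold, from 8.94 ± 0.16 to 9.33 ± 0.13 (SD, n = 5; limma, adjusted p = 0.0032). Cdkn2a and Cdkn2b lay high among all genes, at percentiles 86.8 and 87.5 of the mean level over the 10 samples. Polycomb marks at this locus were not measured. The imprinted inhibitor gene Cdkn1c rose from 4.09 ± 0.19 to 5.07 ± 0.36, and Cdkn2c fell from 7.83 ± 0.20 to 7.27 ± 0.12. The EV mean of Cdkn1c lay just below the median of all features at 4.16, where values may be background. Over the 7 genes of the list for inhibitors of cyclin-dependent kinases, 3 were higher and 1 lower (57.1% called, median 0.06). Of all genes 25.6% were called. By mean level over the 10 samples, all 7 lay above the median gene level. There 41% (level quartile 3) and 51% (quartile 4) of all genes were called.

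The Hox clusters, the best known Polycomb targets of animals, fell in the B and D clusters. Of 38 measured Hox genes 0 were higher and 11 lower (28.9% called, where 13.2% of all genes were lower), with a median change of -0.06. By limma 0 Hox genes were higher also at an unadjusted p under 0.05, and an exact rank-sum test called 0 higher. The 11 comprised 6 of 10 Hoxb and 5 of 9 Hoxd genes, and their falls ran from 1.38-fold to 4.83-fold. Hoxd8 fell from 9.88 ± 0.15 to 7.61 ± 0.06 (SD, n = 5), Hoxb8 from 8.85 ± 0.05 to 6.86 ± 0.11 and Hoxd9 from 7.39 ± 0.33 to 5.79 ± 0.12 (limma, adjusted p = 1.1e-10, 7.4e-11 and 1.2e-06). Of the 10 Hoxa and 9 Hoxc genes 0 were called by limma or by the rank-sum test, and 0 had an unadjusted p under 0.05 by limma. All of these had group means below the median of all features at 4.16, so a further fall could not be read from them.

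**Figure D3:**
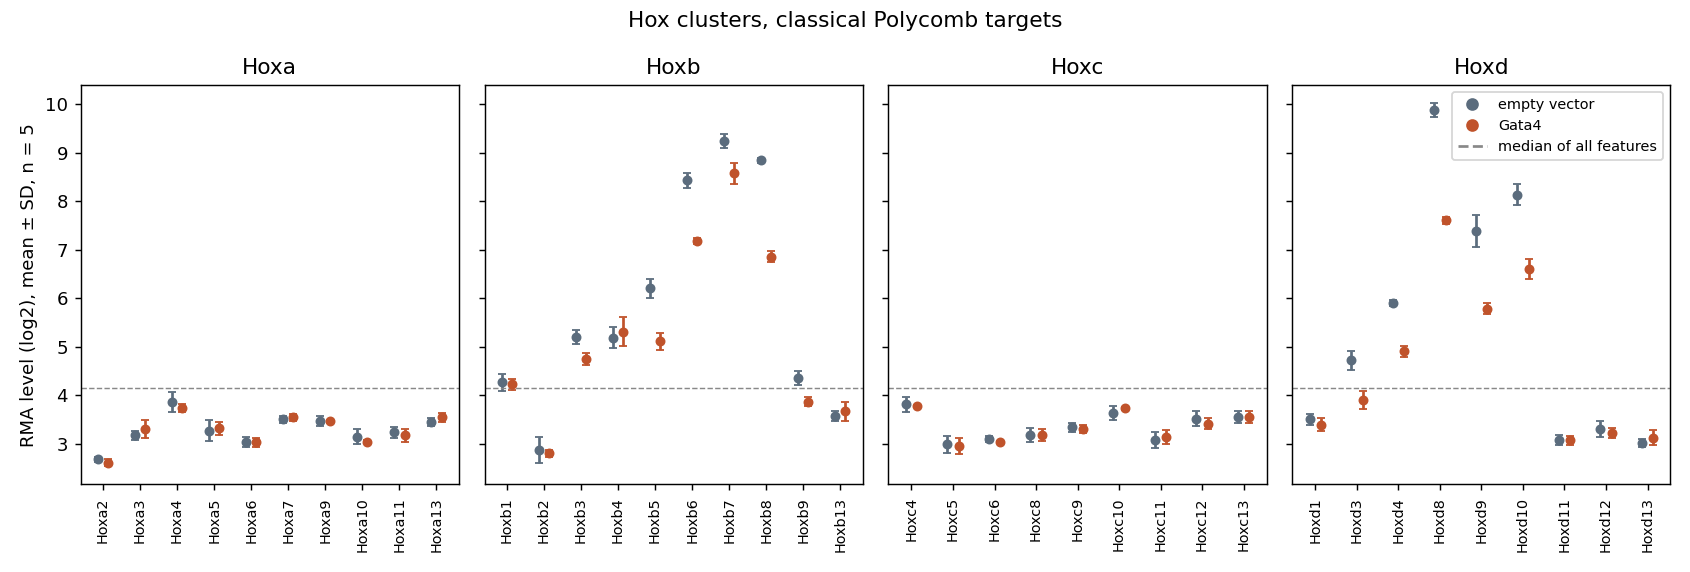
Mean level (RMA, log2) with SD over 5 samples of the measured Hox genes in each cluster, empty vector and Gata4 side by side, with the median of all features as a dashed line. Hoxa and Hoxc genes lie below the line in both groups, while Hoxb3, Hoxb5 to Hoxb9 and Hoxd3 to Hoxd10 are lower in the Gata4 samples.

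Other developmental regulators that carry the PRC2 mark in mouse embryonic stem cells moved in both directions. Of 64 measured, 4 were higher and 8 lower (18.8% called, against 25.6% of all genes), with a median change of 0.02. Of the 64, 40 lay below the median gene level. Among the 4 is Gata4 itself, the gene that the vector carried, whose feature need not detect the codon-optimized transgene. Meis2, a homeobox gene whose product binds DNA with HOX proteins, rose from 7.29 ± 0.12 to 8.05 ± 0.11 (SD, n = 5), and the T-box gene Tbx2 from 5.95 ± 0.17 to 6.70 ± 0.09. The Iroquois genes Irx3 and Irx5 fell 2.15-fold and 1.56-fold, and the T-box gene Tbx20 fell 1.82-fold to 3.60 ± 0.09, near the low end of the scale. Whether any of these genes carries the mark in bEnd3 cells was not measured.

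Most genes of cell division fell. Ezh2, Eed and Suz12 are known as E2F targets, so genes of the E2F and RB family and of proliferation are given beside them. Of 15 E2F and RB genes 1 was higher and 11 were lower (80% called), with a median change of -0.35. Over all genes 25.6% were called, and 13.2% were lower. Of the 15, 1 lay below the median gene level, and above it 41% (level quartile 3) and 51% (quartile 4) of all genes were called. E2f8, an atypical E2F gene, fell from 8.51 ± 0.10 to 7.49 ± 0.09 (SD, n = 5), and Mybl2 and E2f4 fell by 0.89 and 0.63. Of 25 proliferation genes 1 was higher and 18 were lower (76% called), with a median of -0.34. All 25 lay above the median gene level. Foxm1, whose product drives genes of mitosis, fell by 1.24 ± 0.05 (SE), Rrm2 by 0.75 and Aurkb by 0.67, while Tyms rose by 0.22. The mean level of the proliferation genes was 9.40 to 9.52 in the EV and 9.03 to 9.14 in the Gata4 samples, with no overlap. The part of this shift in the values of the Polycomb genes was not tested, and in bulk samples fewer dividing cells and less RNA per cell cannot be told apart. Tfdp2, the only rise of the E2F list, was lost as a call in 12 of its 21 alternatives, among them the replicate block (limma, adjusted p = 0.082).

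**Figure D4:**
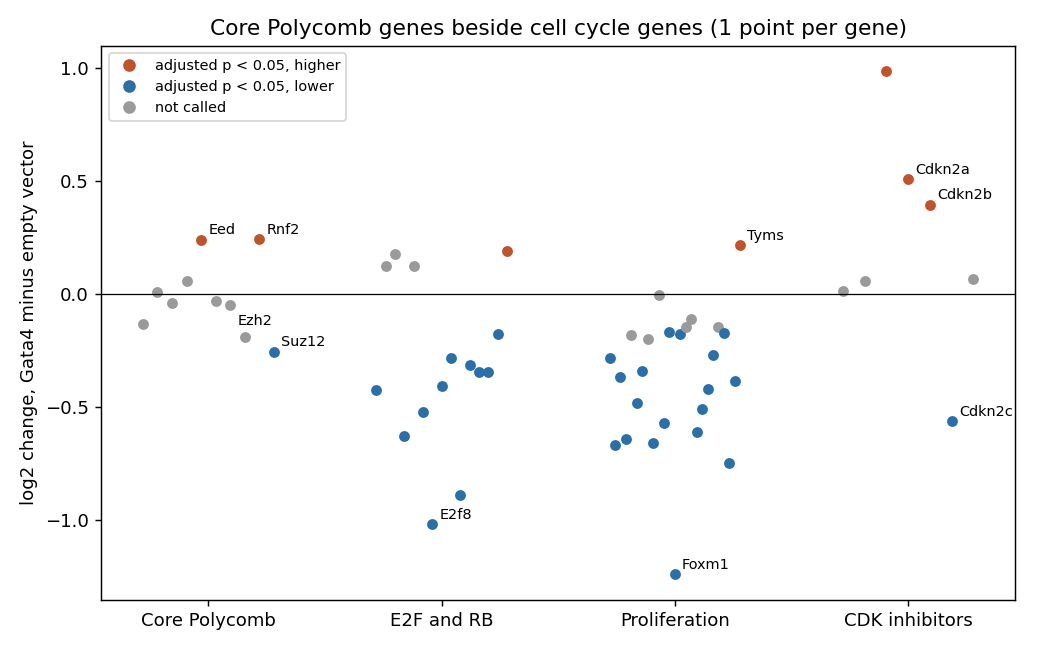
Change in log2 level (Gata4 minus empty vector, vertical axis) of each gene of 4 lists, 1 point per gene, coloured by the limma call. The core Polycomb genes lie between -0.26 and 0.24 around 0, whereas most E2F, RB and proliferation genes lie below 0, down to -1.24 for Foxm1.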

How the data were processed

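RNA of 10 bEnd3 samples was read on Affymetrix arrays. Values in the deposited table are on a log2 scale; the authors obtained them by RMA, per the submitters' processing notes. Versions and the probe set definition: not given in the sources used here. Of 23748 features 23111 had 1 gene symbol in the platform annotation, 0 had several and 637 had none and were left out; each named feature is 1 gene.

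Samples were grouped by title. Group means were compared with limma 3.58.1 (R 4.3.3; lmFit and eBayes) over all 23111 genes, p-values were adjusted after Benjamini and Hochberg, and 0.05 was the threshold; a gene called higher or lower passed it. Differences between 2 members were tested by exact two-sided permutation over samples, adjusted over 6 pairs; 1 other planned pair is not reported here. The members, the 13 gene lists, the comparison and the alternatives were chosen with earlier results of these data known. Lists are described by counts and medians, with no list test. Named were all members, up to 3 called genes in each direction per list, Pcgf2, Cdkn2a, Cdkn2b and the nearest profiles. The fit was tested on simulated data in which 200 of 23111 genes changed. It recovered 36% of changes of 0.25 and 90% of changes of 0.5 on the log2 scale, and 4.14% of its calls were false. Far fewer genes changed there than were called here, and the adjusted threshold depends on that number, so these shares need not hold for the real data. Alternatives changed the variance model, the weights, the test, the filter on low values, the normalization and the samples.

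Arrays of a group correlated at 0.9964 to 0.9977 and 0 columns were identical. Same-numbered samples of the groups deviated together with correlations of -0.02 to 0.09, so the numbers were not taken as pairs.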

Additional observations from a re-analysis of the deposited data

Results flagged for a closer look

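In 158 sets of 5 samples (each named gene and pair difference in each group), 6 held 1 sample whose gap to its nearest neighbour exceeded 0.71 of the range of the set; chance alone flags about 1 set in 20. Among the members, Rnf2 read 9.36 in EV replicate 4 against 9.46 to 9.49 in the other EV samples. Cbx8 read 4.87 in EV replicate 5 against 5.09 to 5.15. Pcgf1 read 6.29 in Gata4 replicate 1 against 6.75 to 6.83. Mybl2 read 7.88 in Gata4 replicate 2 against 8.23 to 8.31. Zbtb11, near to Suz12 in profile, read 8.90 in Gata4 replicate 2 against 8.63 to 8.70. Emcn, an endothelial sialomucin gene, read 12.41 in EV replicate 3 against 12.50 in the other four.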

How the results depend on the processing

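The calls of Eed, Rnf2 and Suz12 were the same 3 members in 19 of 21 alternatives. The exact rank-sum test left Eed and Rnf2. Tested by limma's treat against a fold of 1.2, 0 members passed (0 at an unadjusted p under 0.05) and 2072 of all genes did, against 5915. The largest estimated fold of a member was 1.19, below 1.2, so this test could not call any member. Centring on reference genes called 2281 genes higher and 3735 lower, against 2857 and 3058. With 4 samples in a group, leaving out 1 sample gave a change of -0.055 to 0.0045 for Ezh1, -0.065 to -0.019 for Ezh2, -0.23 to -0.031 for Bmi1, -0.23 to -0.11 for Ring1, -0.036 to 0.090 for Cbx2, -0.10 to 0.035 for Cbx7 and -0.015 to 0.16 for Cbx8. Cbx2 changed sign under array weights (-0.0016), after centring on reference genes (-0.035) and without EV samples 1 and 2 (-0.016), and so did Cbx7 without those samples (0.10). The removal of EV samples 1 and 2 was chosen after seeing the data. It turned Ezh1 minus Ezh2 to -0.010, Cbx7 minus Cbx8 to 0.0066, Cbx7 minus Cbx2 to 0.12 and Bmi1 minus Pcgf2 to 0.082, none called, and put Ring1 minus Rnf2 at -0.50 (adjusted p = 0.11, the smallest that 3 against 5 samples allow over 6 pairs). Without single samples, the pair shifts ran from -0.0066 to 0.048 for Ezh1 minus Ezh2, from -0.18 to -0.03 for Cbx7 minus Cbx8, from -0.12 to 0.026 for Cbx7 minus Cbx2, from -0.17 to 0.075 for Cbx2 minus Cbx8, from -0.19 to 0.071 for Bmi1 minus Pcgf2 and from -0.49 to -0.36 for Ring1 minus Rnf2. Cyclic loess gave -0.41 for Ring1 minus Rnf2 (adjusted p = 0.095). With the replicate number as a block this shift was -0.43 (exact sign-flip test, adjusted p = 0.38, the smallest that 5 pairs of samples allow here). Neither this test nor the one without EV samples 1 and 2 could pass the threshold. The block kept the calls of Eed, Rnf2 and Suz12 and gave 5644 calls over all genes. Among PRC2 partners cyclic loess called 3 higher and 1 lower. The causes of these shifts were not tested. For Cbx7 the filter at the median level left no value. Over 73 named genes, 1426 of 1528 gene and alternative combinations kept direction and call, 90 lost the call and 12 changed sign.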

Other observations

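Pcgf5, the Polycomb gene with the largest rise, lies next to Ankrd1 in the RefSeq gene order of chromosome 19. Ankrd1, looked up for this reason after the values were seen, encodes an ankyrin repeat protein of stretched muscle and a target of YAP. It rose 4.36-fold, from 9.64 ± 0.57 to 11.77 ± 0.07 (SD, n = 5; limma, adjusted p = 6.3e-06).

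The reference gene Gapdh, which cells express at a high level, read 3.19 ± 0.21 in the EV and 3.24 ± 0.10 in the Gata4 samples, below the median of all features at 4.16. A low value in this table therefore need not mean a low transcript, which bears on the reading of Cbx7 and of the Hoxa and Hoxc genes.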
